A study of Ovis aries with 26 samples.

Results

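In sheep, 93 of the 30186 genes of the deposited expression table made up a set of transcripts that were abundant in the mature oocyte and low in the 2-cell embryo. A gene belonged to the set when its mean level in mature oocytes plus 1, divided by its mean level in 2-cell embryos (2C) plus 1, was at least 3, and when both oocyte libraries lay above every 2C library. Such oocytes rest in metaphase of meiosis II and are called MII. Levels are FPKM, the fragments of a gene scaled by its length in kilobases and by the assigned fragments of the library. The genes were thus chosen by their measured MII and 2C values, so that difference is described here and not tested. The rule without its exceptions took 104 genes, or 0.345% of all rows and 1.21% of the 8622 rows with a mean FPKM of at least 1 in MII. The same rule in the opposite direction took 176 genes, or 0.583%. The exceptions were 6 genes given by name, 5 of which passed, and cytosolic ribosomal protein genes, of which RPL22L1, RPS26, RPS12, RPS20, RPL26L1 and RPL37 passed.

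The study sequenced poly(A) RNA from oocytes and cultured embryos in 26 libraries. There were 2 libraries of MII oocytes, and all the others came from embryos after fertilisation of such oocytes in vitro. These were 2C (4 libraries), 4-cell (4C, 3), 8-cell (8C, 4), 16-cell (16C, 3), morula (3), early blastocyst (EarlyB, 3) and expanded blastocyst (ExpB, 4) stages. The labels name no genetic change or drug, and all embryos shared the same commercial fertilisation and culture media. Cells were lysed directly and copied with Smart-seq2, which amplifies cDNA from very little RNA through priming on the poly(A) tail. The labels do not give the ewes' age or breed, the number of oocytes or embryos in a library, or whether replicates were separate animals or cultures.

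A fully grown oocyte is transcriptionally silent and carries a store of maternal mRNA that supports fertilisation and the first cleavages. After meiosis resumes this store is cleared in waves, through shortening of poly(A) tails and decay, first by factors already in the egg and later by factors made by the embryo. In sheep the main activation of the embryonic genome falls around the 8-cell to 16-cell stages, the window after which the levels of the lost transcripts were followed here. Poly(A) priming reads the transcript and its tail together, so loss of the RNA and loss of its tail were not told apart, nor were new RNA and a lengthened tail on stored RNA. FPKM is a share of each library, and in such bulk libraries fewer cells of a type and less RNA per cell cannot be told apart.

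The 2 MII libraries differed from each other over these genes. MII replicate 1 was above MII replicate 2 for 87 of the 93, and over 2 times as high for 60, against 6.79% of the 6067 genes whose MII mean was at least that of the lowest member (the comparison genes). Their median ratio of MII replicate 1 to replicate 2 was 2.40, against 0.871 in the comparison genes. With MII replicate 1 left out the same rule took 34 genes, 23 of them in the set; those 23 carry the MII to 2C difference in replicate 2 alone. The highest 2C library was 2C replicate 1 for 71 of the 93, against 44.3% of the comparison genes. In 16C, replicate 3 was over 2 times each of the other libraries for 28 members, against 12.0% of the comparison genes. Assigned reads, recovered from the steps of the FPKM values, were 27.2 and 33.0 in MII in units of 1e6, and per library between 16.0 in EarlyB and 35.6 in 8C. A member had between 76 and 65073 reads in MII replicate 1 and between 14 and 50457 in MII replicate 2.

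The summed FPKM of 43 oocyte and maternal-effect genes was 17982 and 21152 in the oocyte libraries, against a 2C range of 12854 to 16156. Its 8C range was 12492 to 19557, so this sum does not set MII apart from 8C. The 24 cumulus and granulosa cell markers summed to 78.5 and 86.0 in MII and to between 134 and 443 in 2C. Only 3 of them, AMH, AMHR2 and NR5A1, were at 0 in both MII libraries. The 16 sperm markers summed to 3.99 and 4.67 in MII and to 6.32 to 12.4 in 2C, with PRM1, PRM2, TNP1 and TNP2 among the 9 at 0 in MII. The 11 blood cell markers summed to 0.516 and 0.722 in MII and to 1.28 to 22.1 in 2C. The cumulus and granulosa, sperm and blood sums were lower in MII than in 2C, and the oocyte sum was higher. No member was on any of these lists. The part of other cells in the MII levels of the members was not tested.

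**Figure D1:**
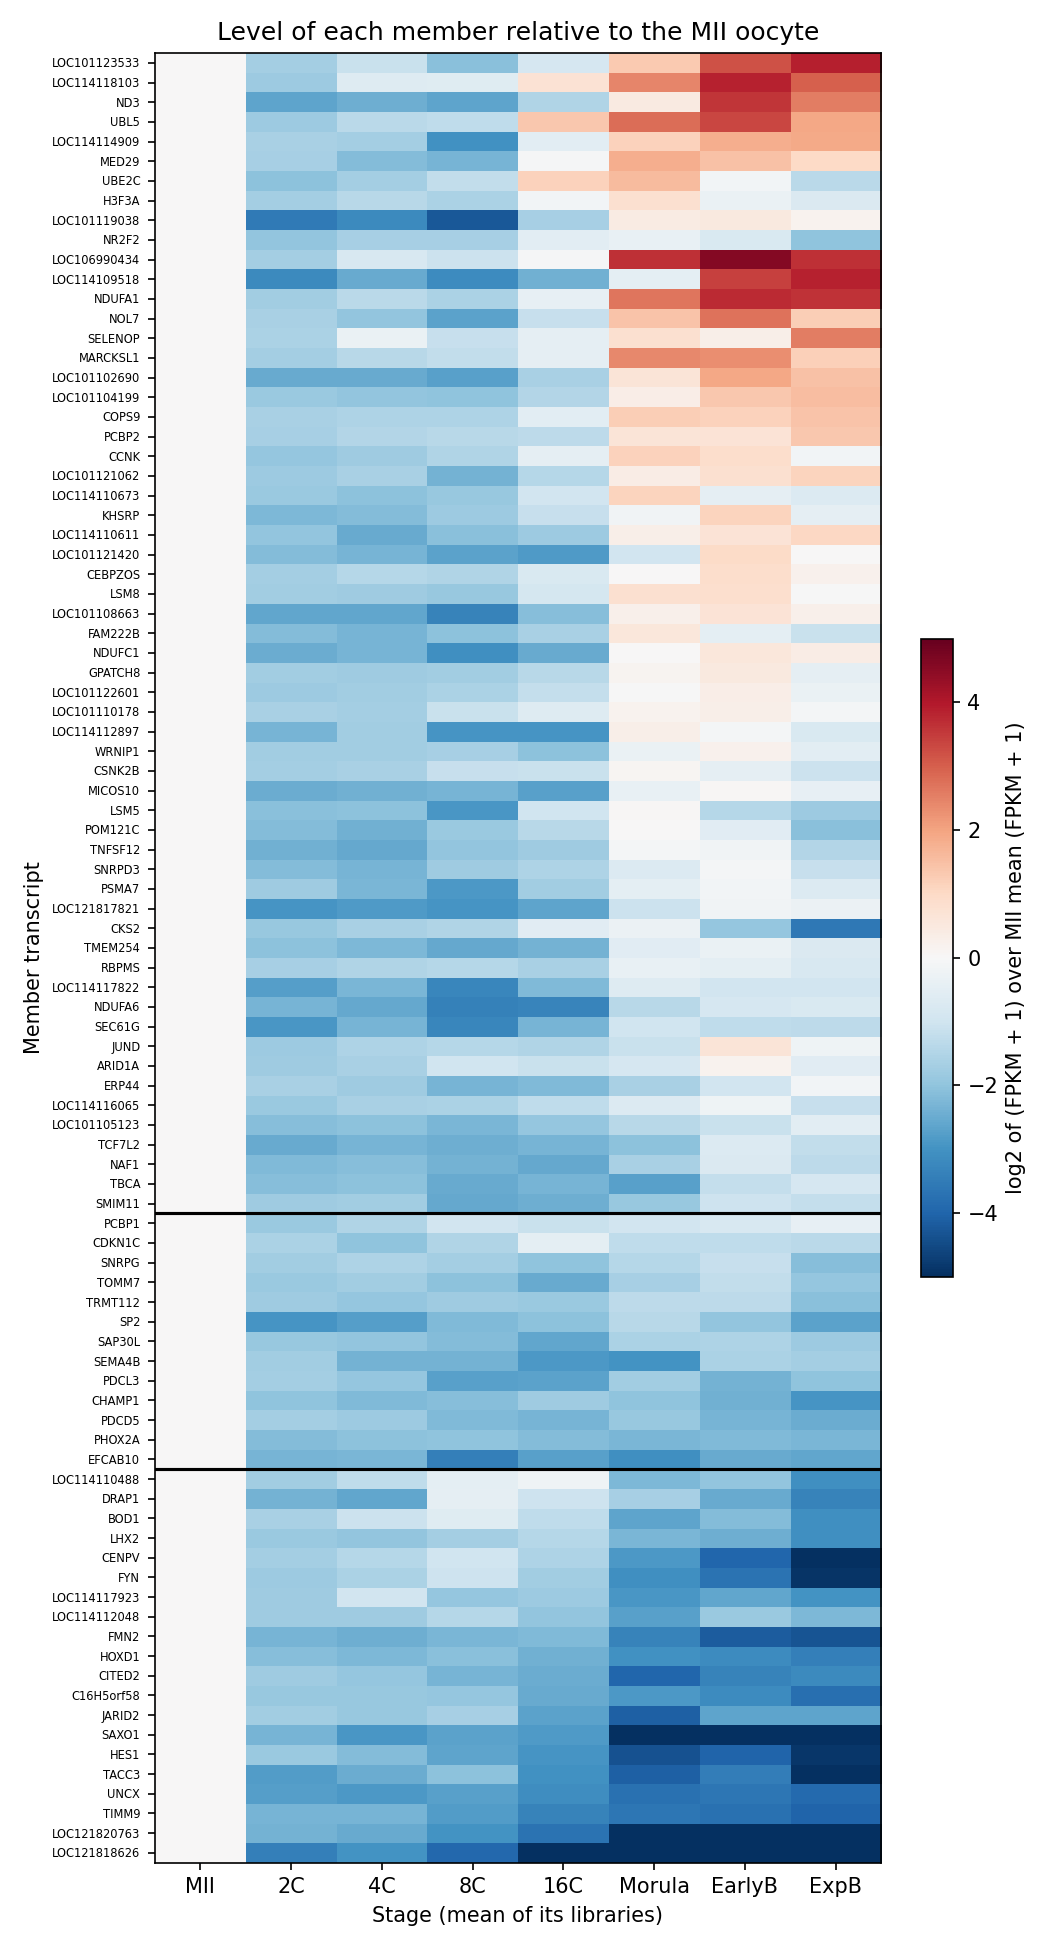
Heat map of 92 of the 93 genes (rows) by stage (columns, mean of the libraries of a stage). Colour gives log2 of mean FPKM + 1 over MII mean FPKM + 1, clipped at 5 either way, and the 2 black lines part the genes called higher than 8C in a later stage (59 of those shown, top), those called in neither direction or not tested (13, middle) and those called lower only (20, bottom). Nearly all rows are blue from 2C to 8C, and in the upper block the colour turns paler or red from 16C or morula on.

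Levels were low in 2C, as the rule requires, and the median changed little from there to 8C. The median gene of the set stood at 21.9% of its MII mean in 2C, 21.7% in 4C and 19.4% in 8C. The median comparison gene, not chosen by that rule, stood at 109% in 2C and 112% in 8C. The gap between them in 2C follows from the choice of members. Summed over the set, FPKM was 12659 and 33163 in the MII libraries, 4288 to 7498 in 2C and 5002 to 6906 in 8C. The ratio that chose the genes ran from 3.01 to 11.6 with a median of 3.66, and MII means ran from 3.41 to 2183 FPKM. Just inside the limit were CDKN1C at 3.01, SELENOP at 3.03 and COPS9 at 3.07, and just outside it were ACCSL at 2.98, DUT at 2.96 and FGF16 at 2.96. The largest ratios belonged to LOC101119038 at 11.6, LOC121818626 at 10.7 and LOC114109518 at 9.09, and among genes with a symbol to SP2 at 7.72 and SEC61G at 7.45.

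Later stages were tested with limma on log2(FPKM + 1) in the 20 libraries from 4C to ExpB, which did not choose the genes. A gene was called higher or lower, and is said to have risen or fallen, at a Benjamini-Hochberg adjusted p under 0.05 over all 15639 genes tested and a difference of at least 1 on that scale. Of the 93, 92 were tested; the exception was the homeobox gene PHOX2A. Because nothing shows that replicates were separate animals or cultures, the p-values speak only for the spread among these libraries, part of which may be technical. Between 4C and 8C none of the 92 was called in either direction, where 0.237% of all genes were called higher and 0.23% lower. At an unadjusted p under 0.05 there were 17 members and 2116 of all genes, and limma-voom on recovered reads also called none of the members.

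In the set as chosen with both MII libraries, most of the lost transcripts came back after the 8-cell stage. Against 8C, 10 members were higher in 16C (background over all genes 5.22%), 50 in morula (30.6%), 56 in EarlyB (37.3%) and 45 in ExpB (29.6%). Members lower than 8C numbered 2 in 16C (background 1.94%), 13 in morula (19.2%), 13 in EarlyB (22.2%) and 18 in ExpB (25.2%). These 4 comparisons share the 8C libraries. The median difference of the members was 0.21 in 16C, 1.27 in morula, 1.48 in EarlyB and 0.99 in ExpB, beside -0.04, 0.30, 0.48 and 0.17 over all genes, on the log2(FPKM + 1) scale. A transcript was said to return when it was called higher than 8C in a later stage in which its mean was at least 50% of its MII mean. By that rule 59 returned, or 63.4% of the set, and 41 of them reached or passed their MII mean. SMIM11, a small membrane protein, also rose but stayed under 50%. Of all genes tested 47.3% were called higher than 8C in at least 1 of the 4 stages, and of the 6065 tested comparison genes 28.6% were. In the other direction 21 members were called lower in at least 1 stage, beside 29.4% of all genes and 55.7% of the tested comparison genes. The comparison genes were matched on their MII mean only. Their median 8C level was 112% of MII, against 19.4% for the members, so these shares do not start from a like 8C level. CKS2 was the only gene called both ways, and 12 were called neither way.

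The step that moved most of them was that from 16C to morula, where 47 rose and 11 fell, beside 28.1% and 15.1% of all genes. From morula to EarlyB 16 rose and 8 fell (14.7% and 12.2% of all genes), and from EarlyB to ExpB 1 rose and 17 fell (4.64% and 12.8%). First called higher in 16C were 10 genes, first in morula 40, first in EarlyB 10 and first in ExpB 0. As a share of the MII mean, the median gene stood at 24.5% in 16C, 57.5% in morula, 65.5% in EarlyB and 47.1% in ExpB. The scale of the values mattered to the size of this group: 49 returned when each library was scaled to the same sum (TPM), 49 after median-ratio scaling and 51 after quantile normalization. On the TPM scale 45 members were higher and 19 lower in morula, 44 and 20 in EarlyB, and 35 and 23 in ExpB. These scalings also moved the median of all genes, in EarlyB against 8C from 0.48 as deposited to 0.16 (TPM), 0.31 (median-ratio) and 0 (quantile). With the set chosen without MII replicate 1, 16 of 34 returned; without MII replicate 2, 149 of 251; and without 2C replicate 1, 106 of 157. Of the 23 members that did not depend on MII replicate 1, 12 returned and 9 fell only. Beside these counts, 47.3% of all genes tested were called higher than 8C in at least 1 later stage.

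**Figure D2:**
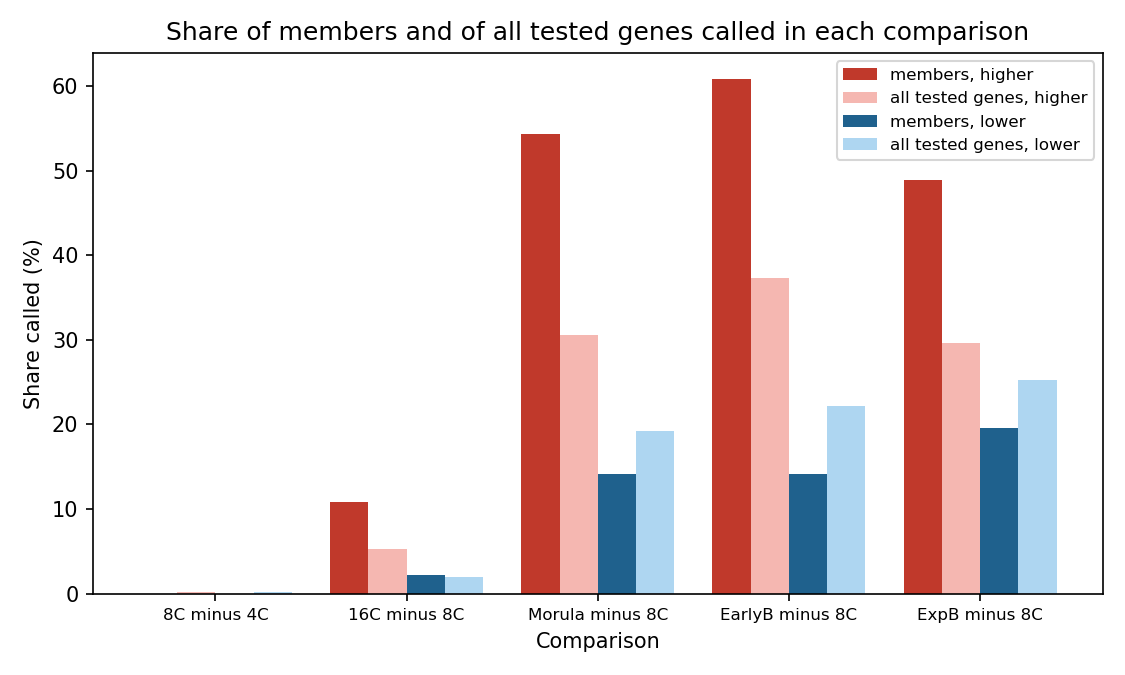
Bars give the percent of the 92 tested members (dark) and of all 15639 tested genes (pale) called higher (red) or lower (blue) in 8C against 4C and in 16C, morula, EarlyB and ExpB against 8C. Of the members, 54.3% were higher in morula and 60.9% in EarlyB, beside 30.6% and 37.3% of all genes.

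The groups by role below were made by hand after values were seen, with each gene in 1 group, and only order the text. Beside their counts, 63.4% of the whole set returned. Of all genes tested, 47.3% were called higher than 8C in a later stage and 29.4% lower. Genes of the mitochondrion numbered 8, of which 6 returned and 1 was called lower. Among genes with a symbol they held the largest rises after 8C, those of ND3 and NDUFA1. Complex I is the entry point of electrons into the respiratory chain, and 4 of its subunits were in the set: NDUFA1, NDUFA6 and NDUFC1, encoded in the nucleus, and ND3 (KEF53_p06 in the table, named by its locus tag), encoded in mitochondrial DNA. NDUFA1 was at 165 and 56.7 FPKM in MII, 46.02, 34.8, 26.1 and 21.9 in 2C and 50.1, 36.9, 24.6 and 32.8 in 8C, then at 917, 515 and 679 in morulae and 1255, 1906 and 1339 in EarlyB. The EarlyB libraries were all above every other library before them, with no overlap, and EarlyB exceeded 8C by 5.36 ± 0.36 (SE; adjusted p = 1.55e-10). NDUFC1 was at 938 and 325 FPKM in MII, 163, 98.3, 106 and 85.2 in 2C, 95.1, 84.4, 59.5 and 62.8 in 8C and 911, 985 and 886 in EarlyB. Its EarlyB level exceeded that of 8C by 3.63 ± 0.35 (SE; adjusted p = 2.09e-08), and its 3 16C libraries stood at 55.8, 51.6 and 220.03, of which replicate 3 alone lay above the 8C range. NDUFA6 was at 1085 and 418 FPKM in MII, 96.6, 78.2, 59.4 and 52.2 in 8C and 491, 445, 473 and 386 in ExpB, which exceeded 8C by 2.67 ± 0.39 (SE; adjusted p = 5.14e-06). All 3 nuclear genes were higher in MII replicate 1 than in replicate 2 by over 2 times.

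ND3 was at 487 and 122 FPKM in MII, 60.3, 43.8, 34.7 and 52.3 in 2C, 75.7, 40.6, 52.4 and 25.9 in 8C and 3204, 4233 and 3337 in EarlyB, where it passed 8C by 6.27 ± 0.36 (SE; adjusted p = 2.33e-11). Its earlier call in 16C, 1.15 ± 0.36 (SE; adjusted p = 0.0414) above 8C, was lost in 13 alternatives, among them without 16C replicate 1 or 3, without 8C replicate 2, 3 or 4, and on the TPM scale, with adjusted p up to 0.158. ND3 was the only 1 of the 13 protein genes of mitochondrial DNA to pass the rule; the other ratios ran from 0.660 for CYTB to 2.96 for ND4L. Reads of these 13 genes together made up 1.77% and 0.894% of a library in MII, 0.574% to 0.894% in 2C, and 3.99% to 5.31% in morulae. The share was 8.58% to 10.2% in EarlyB and 9.29% to 10.9% in ExpB. Their part in the values of ND3 was not tested. MICOS10, a small subunit of the complex that shapes cristae, was at 556 and 132 FPKM in MII, 81.8, 84.6, 35.8 and 69.04 in 8C and 339, 404 and 340.5 in EarlyB. MICOS10 exceeded its 8C level by 2.46 ± 0.31 (SE; adjusted p = 6.18e-07). CEBPZOS, a small mitochondrial protein, was 1 of the genes that did not depend on MII replicate 1, at 10.5 and 9.16 FPKM in MII, 3.23, 3.21, 2.61 and 2.11 in 8C and 19.1, 19.8 and 17.8 in EarlyB. For CEBPZOS the difference from 8C was 2.40 ± 0.32 (SE; adjusted p = 1.86e-06).

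The mitochondrial import genes behaved otherwise. TOMM7, a small subunit of the outer membrane import channel, was at 2142 and 732 FPKM in MII and 459.8, 315, 307 and 319 in 8C, and its EarlyB libraries at 637, 723 and 463 exceeded 8C by 0.79 ± 0.25 (SE; adjusted p = 0.00855), under the limit of 1. TIMM9, a chaperone of the intermembrane space, was at 1218 and 789.5 FPKM in MII, 246, 207, 178 and 178 in 2C and 153, 149.6, 146 and 126 in 8C, and at 42.7, 77.9, 60.1 and 62.8 in ExpB, where it had fallen, with a difference from 8C of -1.25 ± 0.36 (SE; adjusted p = 0.00451). Of the 62 nuclear genes of the respiratory chain that were tested, 54 were higher than 8C in at least 1 later stage and 1 was lower. On the TPM scale these counts were 55 and 5. Of 77 mitochondrial ribosomal protein genes 57 were higher and 9 lower, and none of them was among the lost transcripts.

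**Figure D3:**
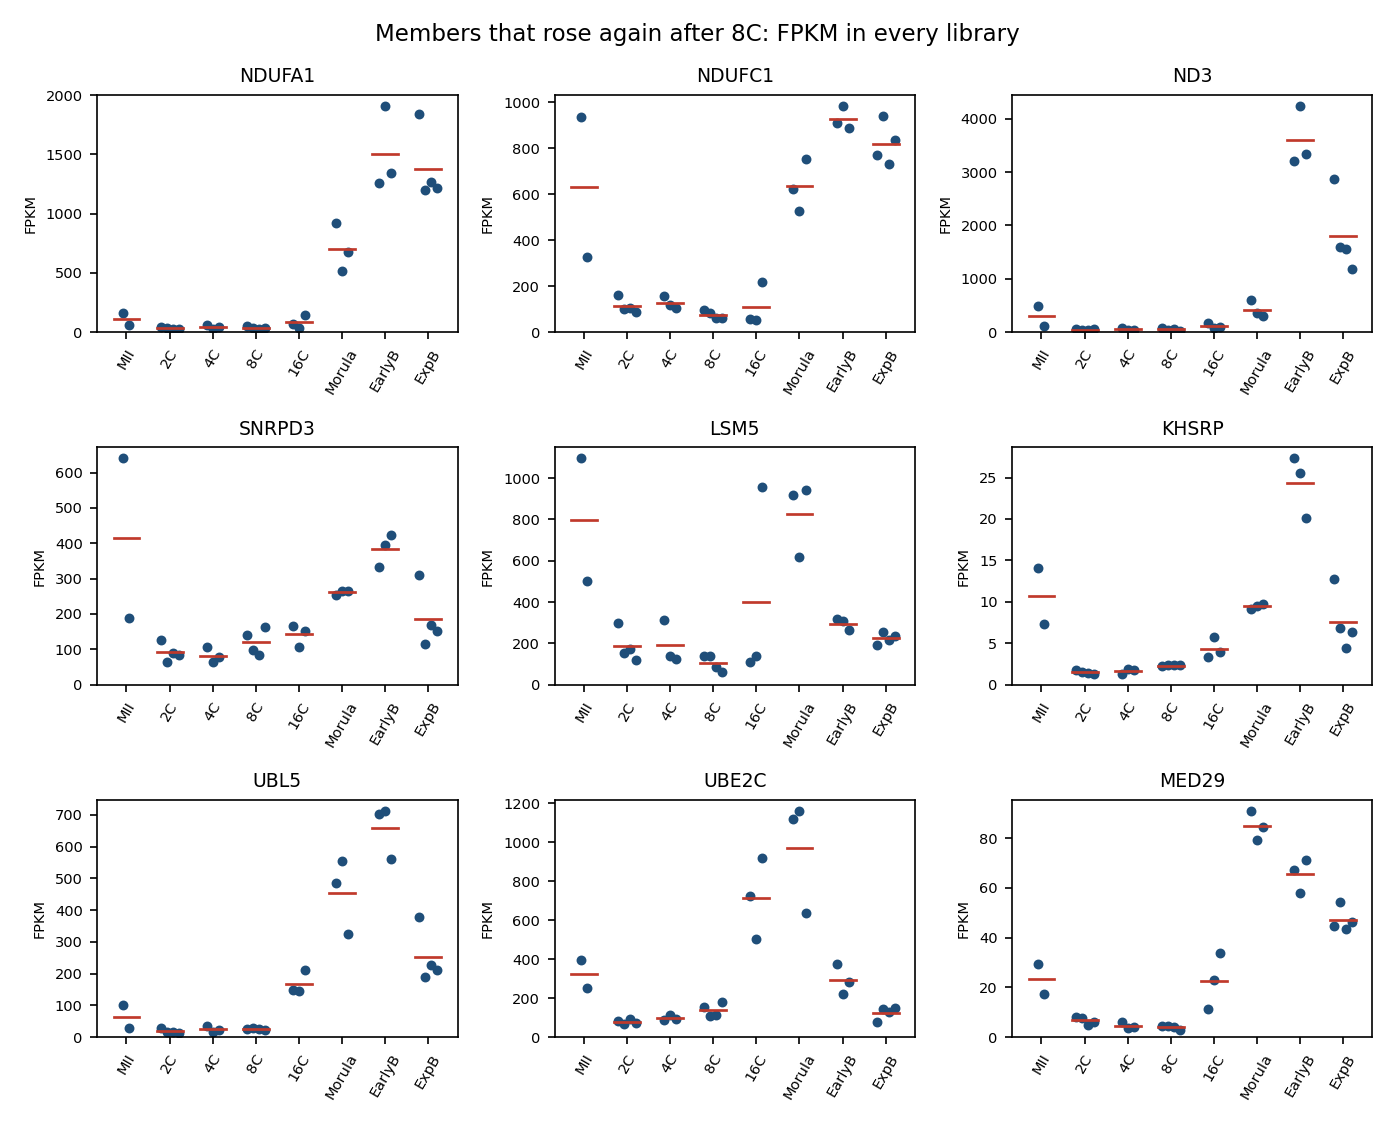
FPKM (linear axis from 0, its own range in each panel) of 9 returning transcripts by stage, with 1 point per library and a red line at the stage mean. All 9 are lower in 2C and 8C than in MII and higher again by morula or EarlyB; ND3 reaches a mean of 3591 and NDUFA1 of 1499.9 FPKM in EarlyB.

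RNA splicing and RNA-binding genes made up 9 members, of which 7 returned and none was called lower. The splicing machinery removes introns through small nuclear ribonucleoproteins, each held by a ring of Sm or LSm proteins. SNRPD3, an Sm ring protein, was at 642 and 189 FPKM in MII, 127, 64.2, 88.9 and 84.6 in 2C, 141, 96.97, 82.7 and 163 in 8C and 332, 396 and 424 in EarlyB. EarlyB exceeded 8C by 1.70 ± 0.29 (SE; adjusted p = 3.09e-05) with no overlap; the morula difference of 1.16 ± 0.29 (SE; adjusted p = 0.00168) was not called on the TPM scale, after quantile normalization, with limma-voom or without 8C replicate 3. SNRPG, another Sm ring protein and among the most abundant of the set in MII at 1831 and 675 FPKM, was at 507, 365, 299 and 384 in 8C and 637, 628 and 406 in EarlyB, 0.51 ± 0.21 (SE; adjusted p = 0.0343) apart, under the limit of 1. The LSm proteins bind U6 RNA and, in another ring, mRNA that is due for decay. LSM5, common to both rings, was at 1097 and 501 FPKM in MII, 140.4, 136, 83.1 and 59.3 in 8C, 110.01, 136 and 959.7 in 16C and 918, 619 and 943 in morulae. The morulae all lay above 8C by 3.03 ± 0.53 (SE; adjusted p = 4.82e-05), and among the 16C libraries replicate 3 stood at morula level while the others did not. LSM8, the subunit specific to the nuclear U6 ring, was far less abundant, at 21.1 and 5.87 FPKM in MII, 2.15, 4.01, 2.87 and 2.71 in 8C and 22.8, 30.1 and 21.6 in EarlyB. EarlyB exceeded 8C by 2.72 ± 0.49 (SE; adjusted p = 6.18e-05).

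Among 80 tested genes of the core spliceosome, 43 were higher than 8C in a later stage and 21 lower (31 lower on the TPM scale), and the 4 Sm and LSm genes were its only members here. Of 90 SR protein, hnRNP and splicing regulator genes 42 were higher and 23 lower (37 lower on the TPM scale), and none was lost from MII to 2C by the rule. PCBP2, a poly(C)-binding protein of mRNA stability and translation, was at 203 and 152 FPKM in MII, 58.2, 59.1, 53.3 and 48.6 in 2C, 65.7, 75.8, 65.5 and 62.3 in 8C and 362, 455, 403 and 579.9 in ExpB, where it passed both its 8C and its MII level, by 2.70 ± 0.19 (SE; adjusted p = 2.67e-10) against 8C. Its relative PCBP1 was at 1388 and 888 FPKM in MII, 429, 268, 275 and 269.6 in 2C, 528, 663, 472 and 672 in 8C and 806, 765, 827 and 1067 in ExpB, 0.57 ± 0.24 (SE; adjusted p = 0.0377) apart, with a mean in 8C already over 50% of that in MII. KHSRP, which binds AU-rich elements and promotes decay of such mRNA (LOC101109446 in the table, named by its gene ID), was at 14.1 and 7.37 FPKM in MII, 1.72, 1.46, 1.37 and 1.32 in 2C, 2.23, 2.31, 2.31 and 2.33 in 8C and 27.3, 25.5 and 20.1 in EarlyB. It exceeded 8C there by 2.93 ± 0.24 (SE; adjusted p = 2.11e-09), and it met the rule without MII replicate 1 as well. On the list of 84 RNA decay, deadenylation and storage genes, of which KHSRP was the only member, 34 were higher than 8C in a later stage and 32 lower (31 and 45 on the TPM scale). GPATCH8, a G-patch domain protein, rose in EarlyB by 2.21 ± 0.18 (SE; adjusted p = 1.82e-09), from 2.66, 3.05, 3.31 and 2.40 in 8C to 19.04, 16.4 and 15.2 FPKM. RBPMS, an RNA-binding protein, was at 2.43, 1.66, 1.84 and 2.06 FPKM in 8C and 4.91, 6.29 and 4.40 in morulae; its call of 1.04 ± 0.21 (SE; adjusted p = 0.000238) was lost on each of the 3 other scales, with the replicate block and without 8C replicate 2 or morula replicate 2.

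Genes of protein synthesis, folding and turnover numbered 11, of which 9 returned and none was called lower. Ubiquitin marks proteins for destruction by the proteasome, and the exit from metaphase depends on it. UBE2C, the ubiquitin-conjugating enzyme of the anaphase-promoting complex, was at 398 and 249.9 FPKM in MII, 80.2, 67.5, 92.8 and 70.2 in 2C, 154, 106, 112 and 179.8 in 8C, 725, 504 and 918 in 16C and 1120.4, 1163 and 635 in morulae. All 16C and morula libraries were above every 8C library, by 2.36 ± 0.29 (SE; adjusted p = 1.23e-05) in 16C and by 2.79 ± 0.29 (SE; adjusted p = 8.33e-08) in morulae, and the level was back to 78.5, 142, 129 and 152 in ExpB. UBL5, a ubiquitin-like protein of the splicing machinery, was at 102 and 27.7 FPKM in MII, 26.4, 28.7, 25.8 and 23.4 in 8C, 148, 146 and 212 in 16C and 704, 712 and 563 in EarlyB. It rose in 16C by 2.63 ± 0.26 (SE; adjusted p = 1.1e-06) and in EarlyB by 4.60 ± 0.26 (SE; adjusted p = 1.54e-11), with no overlap with 8C in either. PSMA7, an alpha subunit of the proteasome core, was at 501 and 159 FPKM in MII, 54.02, 47.5, 28.6 and 47.8 in 8C and 264, 323 and 318 in EarlyB. The rise over 8C was 2.77 ± 0.40 (SE; adjusted p = 3.75e-06). COPS9, a subunit of the COP9 signalosome, which removes NEDD8 from cullin ligases, went from 115, 85.9, 96.6 and 95.2 in 8C to 832, 578, 929 and 732 FPKM in ExpB. ExpB stood 2.94 ± 0.30 (SE; adjusted p = 4.16e-08) above 8C, past its MII libraries at 409 and 166. Of 201 proteasome and ubiquitin genes 87 were higher than 8C in a later stage and 69 lower, an order that turned on the TPM scale (70 and 97) and after quantile normalization (75 and 77).

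SEC61G, the gamma subunit of the channel through which new proteins enter the endoplasmic reticulum, was at 1904 and 521 FPKM in MII, 271, 142, 124 and 110.2 in 2C, 189.8, 114, 102 and 94.98 in 8C, 104, 117 and 507 in 16C and 577, 635 and 622 in morulae. Morulae exceeded 8C by 2.33 ± 0.42 (SE; adjusted p = 6.77e-05). In 16C only replicate 3 lay above all 8C libraries. The RefSeq gene table used for symbols lists SEC61G as a long non-coding RNA, so its reading as the coding gene rests on the symbol. Of 36 genes of translocation into the endoplasmic reticulum and secretory entry 25 were higher than 8C later and 6 lower (17 and 10 on the TPM scale). ERP44, a folding factor of the secretory pathway, rose late, from 22.8, 25.9, 19.9 and 19.7 in 8C to 77.99, 110.01, 118 and 109.7 FPKM in ExpB. The rise over 8C was 2.18 ± 0.20 (SE; adjusted p = 9.11e-09). TBCA, a tubulin folding cofactor, likewise went from 29.3, 33.3, 19.6 and 35.2 to 106, 89.2, 78.6 and 112 FPKM. TBCA exceeded its 8C level by 1.70 ± 0.23 (SE; adjusted p = 2.02e-06). NOL7, a nucleolar protein, was at 15.04 and 8.50 FPKM in MII, 1.26, 0.863, 1.27 and 0.655 in 8C, 1.01, 1.52 and 11.8 in 16C and 94.6, 93.2 and 57.7 in EarlyB, where every library passed MII and 8C was exceeded by 5.34 ± 0.44 (SE; adjusted p = 2.35e-09). NAF1, an assembly factor of the H/ACA ribonucleoproteins that modify ribosomal RNA, was at 11.2 and 7.58 FPKM in MII, 1.02, 0.786, 1.29 and 0.989 in 8C and 5.40, 5.46 and 4.79 in EarlyB. For NAF1 the difference from 8C was 1.63 ± 0.27 (SE; adjusted p = 2.53e-05), a call lost after quantile normalization. TRMT112, a partner of several methyltransferases that act on tRNA, ribosomal RNA and translation factors, did not pass the limit: it was at 2347 and 1018 FPKM in MII, 561, 485, 423 and 508 in 8C and 566, 735 and 749 in morulae. PDCL3, a phosducin-like cofactor of protein folding, was at 351 and 260.04 FPKM in MII and 51.1, 44.4, 44.9 and 41.1 in 8C, and its morula difference of 0.99 ± 0.33 (SE; adjusted p = 0.0136) lay just under 1.

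Genes of the cell cycle, spindle and cytoskeleton numbered 10, of which 3 returned and 5 were called lower only. An MII oocyte is held with its spindle assembled, and several of these proteins act on spindles or chromosomes. TACC3, which stabilises spindle microtubules, was at 609 and 134 FPKM in MII, 88.5, 44.4, 39.8 and 40.3 in 2C, 127, 100.4, 57.1 and 69.03 in 8C, 15.5, 27.2 and 19.4 in morulae and 14.8, 8.44, 7.87 and 8.39 in ExpB. It was lower than 8C in all 4 later stages, with a difference of -2.01 ± 0.31 (SE; adjusted p = 1.34e-05) in morulae and of -3.01 ± 0.29 (SE; adjusted p = 1.64e-08) in ExpB. The 16C difference from 8C, -1.01 ± 0.31 (SE; adjusted p = 0.0374), was not called in 8 alternatives, among them median-ratio scaling and without 8C replicate 1 or 2 or 16C replicate 2 or 3, with adjusted p up to 0.219. FMN2, a formin that builds the actin that positions the meiotic spindle, was at 17.3 and 21.2 FPKM in MII, 2.04, 4.10, 2.79 and 3.08 in 2C, 4.62, 2.94, 2.48 and 2.46 in 8C and 1.07, 0.309 and 1.62 in morulae, and at or near 0 in ExpB at 0.00800, 0.0302, 0.0126 and 0.00600. It had fallen in ExpB, with a difference from 8C of -1.99 ± 0.23 (SE; adjusted p = 2.78e-07), and both its MII libraries were far above all others. SAXO1, a microtubule-binding protein known from cilia and flagella, was at 249 and 207 FPKM in MII, 44.6, 46.3, 37.9 and 49.8 in 2C, 35.1, 29.7, 30.97 and 41.9 in 8C and 0.126, 0.0766, 0.120 and 0.0383 in ExpB, with a difference from 8C of -5.01 ± 0.29 (SE; adjusted p = 1.19e-11) in ExpB.

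CENPV, a centromere protein, went from 33.4, 29.3, 19.2 and 31.1 in 8C to 0.475, 0.458, 0.626 and 0.466 FPKM in ExpB, a difference of -4.25 ± 0.25 (SE; adjusted p = 1.88e-11), having been at 81.7 and 31.5 in MII. BOD1, which acts in chromosome biorientation, was at 116 and 56.3 FPKM in MII, 38.5, 27.4, 20.3 and 22.7 in 2C and 62.2, 63.1, 41.9 and 55.7 in 8C, so that 8C stood above every 2C library, and it then fell to 13.1, 8.18, 9.15 and 7.13 in ExpB, a difference of -2.46 ± 0.29 (SE; adjusted p = 2.86e-07). CKS2, a small subunit of cyclin-dependent kinases that meiosis requires, was at 1157 and 406 FPKM in MII, 402, 278, 177 and 249.96 in 8C, 816, 692 and 381 in morulae and 90.2, 64.2, 63.2 and 44.5 in ExpB. It was higher than 8C in morulae, by 1.17 ± 0.34 (SE; adjusted p = 0.0051), and lower in ExpB, with a difference of -2.04 ± 0.32 (SE; adjusted p = 9.71e-06). The morula call was lost on the TPM scale, after quantile normalization, with limma-voom and without 8C replicate 3 or morula replicate 1, with adjusted p up to 0.208. CCNK, the cyclin of the kinases CDK12 and CDK13 that act on elongating RNA polymerase II, was at 14.4 and 6.16 FPKM in MII, 2.84, 3.19, 2.39 and 3.39 in 8C and 24.9, 29.2 and 18.6 in morulae. The rise over 8C was 2.66 ± 0.28 (SE; adjusted p = 1.19e-07). MARCKSL1, an actin-binding protein, rose furthest, from 5.26, 4.26, 5.19 and 5.78 in 8C to 82.1, 86.3 and 55.9 FPKM in morulae, by 3.61 ± 0.22 (SE; adjusted p = 1.94e-10), with every morula above both MII libraries at 14.6 and 11.8. CHAMP1, of chromosome alignment, and CDKN1C, an inhibitor of cyclin-dependent kinases, were called in neither direction; their means were 28.4 ± 3.80 and 6.12 ± 2.33 FPKM in MII (SD, n = 2) and 5.74 ± 0.852 and 1.49 ± 0.736 in 8C (SD, n = 4). Of 239 cell cycle, spindle and centrosome genes 72 were higher than 8C in a later stage and 121 lower (55 and 156 on the TPM scale).

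**Figure D4:**
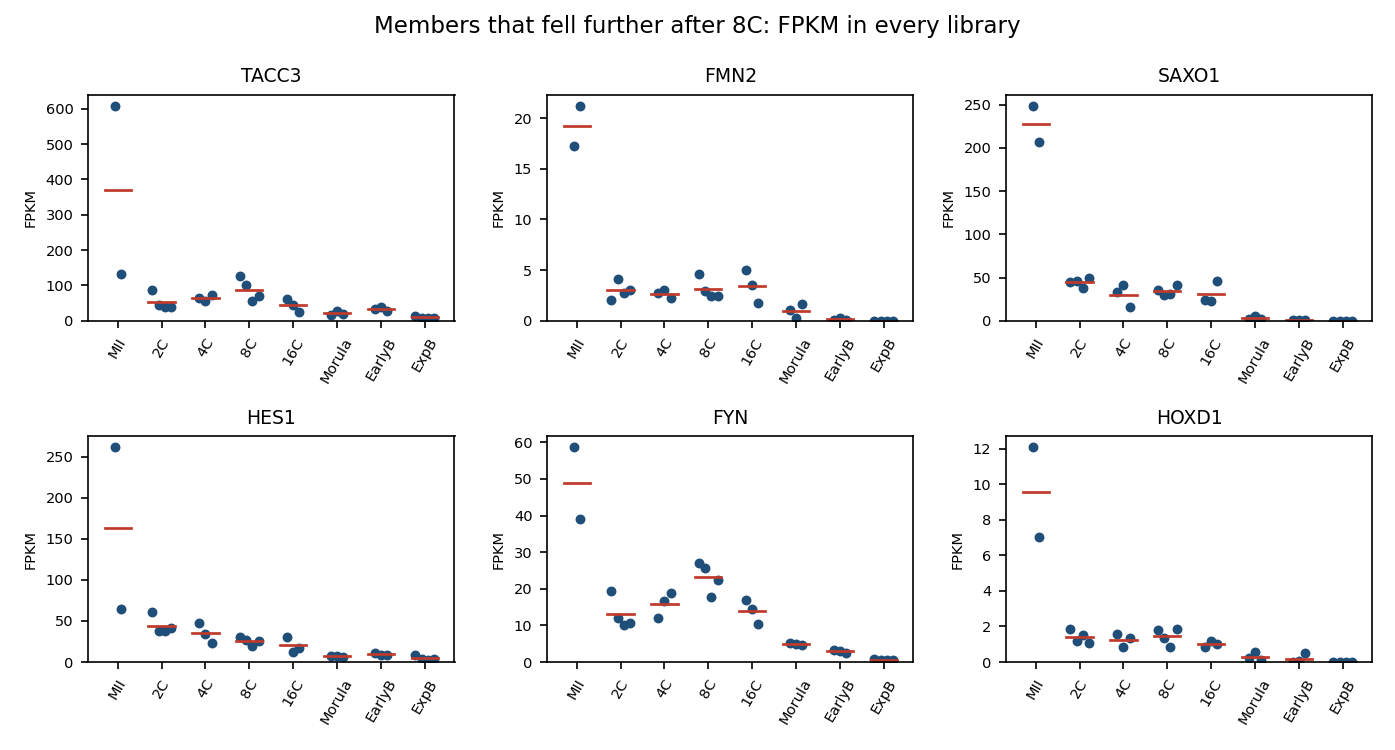
FPKM (linear axis from 0, its own range in each panel) of 6 transcripts called lower than 8C in at least 1 later stage, with 1 point per library and a red line at the stage mean. In each panel both MII libraries lie above every other library and the ExpB mean is the lowest; SAXO1 goes from a mean of 228 FPKM in MII to 0.0901 in ExpB.

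Genes of transcription and chromatin numbered 17, of which 7 returned and 7 were called lower only. Those that returned include broadly acting factors. MED29, a subunit of the Mediator that links activators to RNA polymerase II, was at 29.3 and 17.5 FPKM in MII, 8.20, 7.49, 4.78 and 6.23 in 2C, 4.36, 4.27, 4.09 and 2.88 in 8C, 11.3, 23.1 and 33.7 in 16C and 90.96, 79.2 and 84.5 in morulae. It rose in 16C by 2.16 ± 0.26 (SE; adjusted p = 1.06e-05) and in morulae by 4.14 ± 0.26 (SE; adjusted p = 2.36e-10), where every library passed both MII libraries. H3F3A, which encodes the replacement histone H3.3, was at 589.7 and 255 FPKM in MII, 164, 125, 129 and 149 in 8C, 328, 355 and 465 in 16C and 947, 692 and 577 in morulae, and rose by 1.42 ± 0.21 (SE; adjusted p = 0.000139) in 16C and 2.35 ± 0.21 (SE; adjusted p = 1.62e-08) in morulae. ARID1A, of the BAF remodelling complex, was at 5.45, 4.98, 4.68 and 5.90 FPKM in 8C and 12.7, 12.5 and 14.3 in EarlyB; its call of 1.18 ± 0.25 (SE; adjusted p = 0.000243) was lost on all 3 other scales. TCF7L2, a transcription factor of the Wnt pathway, was at 13.4 and 8.87 FPKM in MII, 1.46, 1.19, 0.886 and 1.39 in 8C and 5.24, 6.78 and 7.92 in EarlyB. TCF7L2 exceeded its 8C level by 1.77 ± 0.28 (SE; adjusted p = 1.52e-05). JUND, of the AP-1 family, was at 5.92 and 0.906 FPKM in MII, 0.600, 0.896, 0.676 and 0.471 in 8C and 8.38, 6.38 and 2.87 in EarlyB. For JUND the difference from 8C was 1.96 ± 0.28 (SE; adjusted p = 3.79e-06), and its MII libraries were unequal, with replicate 1 at 6.53 times replicate 2. NR2F2, an orphan nuclear receptor, was at 6.78 and 3.38 FPKM in MII, 0.269, 1.11, 1.28 and 0.960 in 8C and 4.53, 3.58 and 2.91 in morulae; its morula call of 1.31 ± 0.25 (SE; adjusted p = 0.000108) was lost after quantile normalization and its 16C call of 1.15 ± 0.25 (SE; adjusted p = 0.00417) without 8C replicate 1.

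Transcription factors of developmental pathways were on both sides, since TCF7L2 returned and HES1 and HOXD1 did not. HES1, a repressor downstream of Notch, was at 262 and 64.3 FPKM in MII, 60.8, 37.95, 37.8 and 40.9 in 2C, 30.01, 26.8, 19.9 and 26.003 in 8C and 8.47, 3.34, 2.74 and 3.80 in ExpB. HES1 had fallen, with a difference from 8C of -2.34 ± 0.29 (SE; adjusted p = 5.46e-07). HOXD1, a homeobox gene, was at 12.1 and 7.03 FPKM in MII, 1.87, 1.21, 1.53 and 1.047 in 2C and 1.83, 1.35, 0.848 and 1.87 in 8C, and was listed at 0 in all 4 ExpB libraries; its EarlyB libraries at 0, 0.0663 and 0.481 differed from 8C by -1.06 ± 0.19 (SE; adjusted p = 4.34e-05). LHX2, a LIM homeobox gene, was at 7.69 and 10.8 FPKM in MII, 1.13, 1.44, 2.39 and 3.73 in 8C and 0.176, 0.256, 0.116 and 0.290 in ExpB, a difference of -1.32 ± 0.28 (SE; adjusted p = 0.000267). UNCX, a homeobox gene, had the most unequal MII libraries of the genes with a symbol, at 24.9 and 3.41 FPKM, and was at 2.08, 1.83, 0.601 and 0.737 in 8C and 0.0517, 0, 0 and 0 in ExpB; its call of -1.13 ± 0.19 (SE; adjusted p = 3.23e-05) was lost without 8C replicate 1. UNCX and PHOX2A, a homeobox gene of autonomic neurons at 7.19 and 1.64 in MII, were the 2 members under 1 FPKM in every library from 16C on. CITED2, a coactivator that binds CBP and p300, went from 35.5, 21.8, 21.2 and 19.5 in 8C to 10.4, 6.77 and 4.0021 FPKM in morulae, a difference of -1.70 ± 0.28 (SE; adjusted p = 3.12e-05). JARID2, a partner of the Polycomb complex that methylates histone H3, was at 215 and 90.7 FPKM in MII, 57.7, 58.2, 32.6 and 45.1 in 8C and 10.2, 7.81 and 6.60 in morulae, where its difference from 8C was -2.41 ± 0.20 (SE; adjusted p = 7.8e-09). Both CITED2 and JARID2 were called lower in morulae only. Mean FPKM of JARID2 was then 23.5 in EarlyB and 23.7 in ExpB, and that of CITED2 11.7 and 12.9. DRAP1, a repressor of TBP-dependent transcription, was at 18.2 and 31.4 FPKM in MII, 3.13, 4.07, 3.44 and 5.27 in 2C, 2.71, 11.01, 17.2 and 39.6 in 8C and 1.02, 2.14, 0.760 and 2.37 in ExpB. Between ExpB and 8C the difference was -2.44 ± 0.64 (SE; adjusted p = 0.00203). Its 8C libraries spanned both the 2C and the MII range. SAP30L, of the Sin3 corepressor, and SP2, a GC-box factor, were called in neither direction, with morula differences from 8C of 0.59 ± 0.26 (SE; adjusted p = 0.0485) and 0.81 ± 0.24 (SE; adjusted p = 0.00582).

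Of 237 tested transcription factor genes outside the numbered zinc finger family, 94 were higher than 8C in a later stage and 88 lower, an order that turned on the TPM scale (97 and 118) and after quantile normalization (78 and 101). The 8 members on that list were HES1, HOXD1, LHX2, JUND, SP2, NR2F2, TCF7L2 and CEBPZOS, the last of which, the mitochondrial protein described above, is no transcription factor and is counted there through the start of its symbol. None of the 248 tested numbered zinc finger genes was a member. Of 139 chromatin genes 62 were higher and 47 lower (51 and 65 on the TPM scale), with ARID1A and H3F3A among the members. Of 102 genes of RNA polymerase II, its general factors and the Mediator 39 were higher and 39 lower (33 and 54 on the TPM scale), with MED29 as the member. None of the 39 tested oocyte and maternal-effect genes was a member after the exceptions, and 37 of them were lower than 8C in a later stage and 2 higher.

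The remaining 13 named genes belong to signalling, secretion and other functions; 7 returned, SMIM11 returned in part and 2 were called lower only. SELENOP, which carries selenium between cells, was at 93.2 and 66.6 FPKM in MII, 32.8, 28.6, 28.5 and 13.1 in 2C, 62.2, 58.9 and 69.7 in 4C, 49.4, 48.1, 24.8 and 17.998 in 8C and 219.8, 857, 449 and 358 in ExpB. Its 4C libraries all lay above every 2C library and below or within the MII range, and in ExpB it stood above 8C by 3.65 ± 0.43 (SE; adjusted p = 3.4e-07). FYN, a kinase of the Src family, was at 58.8 and 39.1 FPKM in MII, 19.5, 11.9, 10.04 and 10.6 in 2C, 27.1, 25.8, 17.9 and 22.4 in 8C and 0.879, 0.698, 0.506 and 0.546 in ExpB. FYN had fallen, with a difference from 8C of -3.86 ± 0.18 (SE; adjusted p = 8.3e-13). CSNK2B, the regulatory subunit of casein kinase 2, went from 36.9, 26.2, 24.7 and 30.4 in 8C to 75.1, 74.3 and 64.6 FPKM in morulae. The difference of 1.26 ± 0.20 (SE; adjusted p = 2.11e-05) was not called on the TPM scale. TNFSF12, the cytokine TWEAK (LOC101122801 in the table), was the only member with MII replicate 2 over 2 times replicate 1, at 2.47 and 8.56 FPKM, and went from 0.174, 0.410, 1.48 and 0.661 in 8C to 5.03, 4.34 and 6.03 in morulae. For TNFSF12 the difference from 8C was 1.92 ± 0.28 (SE; adjusted p = 6.78e-06). POM121C, of the nuclear pore, rose in morulae by 1.83 ± 0.27 (SE; adjusted p = 9.18e-06), from 2.06, 3.31, 2.69 and 2.66 to 8.70, 10.5 and 18.5 FPKM. FAM222B rose in morulae by 2.55 ± 0.25 (SE; adjusted p = 5.85e-08), from 0.492, 0.249, 0.368 and 0.242 to 5.53, 4.70 and 11.8 FPKM, and was at 4.72 and 4.41 in MII. WRNIP1, which acts at stalled replication forks, rose in EarlyB by 1.94 ± 0.28 (SE; adjusted p = 4.22e-06) and TMEM254, a membrane protein, by 2.22 ± 0.30 (SE; adjusted p = 1.61e-06). SMIM11 was at 89.1 and 40.2 FPKM in MII, 11.6, 10.3, 7.46 and 11.2 in 8C and 38.6, 31.9 and 23.3 in EarlyB. EarlyB exceeded 8C by 1.53 ± 0.31 (SE; adjusted p = 0.000211), a call lost on the TPM scale. C16H5orf58 fell to ExpB with a difference of -1.78 ± 0.23 (SE; adjusted p = 1.13e-06), from 105, 67.96, 60.7 and 60.1 to 19.7, 20.6, 20.7 and 19.1 FPKM. PDCD5, a protein of apoptosis at 1393 and 499 FPKM in MII and 283, 213, 166 and 165 in 8C, SEMA4B, a membrane semaphorin, and EFCAB10 were called in neither direction.

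Loci with no gene symbol numbered 25, of which 20 returned and 5 were called lower only. They were short, with a median exonic length of 474 bases, and 21 were under 1000 bases. The returning loci were LOC101119038, LOC101108663, LOC114114909, LOC114117822, LOC101121062, LOC101105123, LOC114112897, LOC114118103, LOC101121420, LOC106990434, LOC114110673, LOC101102690, LOC101110178, LOC101122601, LOC114109518, LOC114116065, LOC121817821, LOC114110611, LOC101123533 and LOC101104199. LOC101119038 was at 2093 and 359.6 FPKM in MII, 187, 91.6, 90.2 and 51.7 in 2C, 83.9, 79.97, 46.8 and 42.5 in 8C and 1839, 1826 and 1533 in EarlyB. The rise over 8C was 4.81 ± 0.35 (SE; adjusted p = 5.12e-10), and the locus met the rule without MII replicate 1. LOC114109518 rose furthest of the whole set, by 6.92 ± 0.39 (SE; adjusted p = 1.02e-11) in ExpB, from 0.865, 1.29, 0.667 and 1.06 in 8C to 409.6, 259.8, 192 and 150.4 FPKM, after 30.6 and 2.65 in MII. The loci called lower were LOC114110488, LOC121818626, LOC121820763, LOC114112048 and LOC114117923. LOC114110488 had the highest MII level of the set, at 3276 and 1089 FPKM, yet its 8C libraries at 1294, 1882, 1243 and 1874 had already come up from 673, 486, 1036 and 409.8 in 2C, before a fall to 487, 465 and 430.03 in morulae, a difference of -1.74 ± 0.44 (SE; adjusted p = 0.00181). LOC121818626 was lower than 8C in all 4 later stages, from 281 and 63.1 FPKM in MII and 11.9, 14.1, 6.88 and 8.82 in 8C to 0, 0.160 and 0 in morulae, a difference of -3.40 ± 0.56 (SE; adjusted p = 2.61e-05). Its 16C call of -2.28 ± 0.56 (SE; adjusted p = 0.0105) was lost without 16C replicate 2 or 3. The ExpB call of LOC114117923, a difference of -1.03 ± 0.28 (SE; adjusted p = 0.00269) from 8C, was lost after median-ratio scaling and without 8C replicate 2 or 3 or ExpB replicate 4. The calls of LOC101110178 were lost on the TPM scale and that of LOC114116065 after quantile normalization. The EarlyB call of LOC101105123 was lost on the TPM scale, after median-ratio scaling and with limma-voom.

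A few members were not low for long. PCBP1, DRAP1, BOD1, LOC114110488 and LOC114118103 had an 8C mean of at least 50% of their MII mean, and SELENOP, LOC114118103 and LOC106990434 had such a 4C mean, 7 genes in all. At the other end, 12 members were under 1 FPKM in every ExpB library: SAXO1, CENPV, FYN, FMN2, UNCX, HOXD1, LHX2, NR2F2, PHOX2A, LOC121818626, LOC121820763 and LOC114117923. NR2F2 is the 1 among these that had returned before, in 16C and morulae.

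The set held short transcripts, and length moved with the difference between the MII libraries. Exonic length, recovered with the reads, had a median of 1119 bases (227 to 8401) over the 93 and of 2791.5 over 6050 comparison genes. Under 1000 bases were 44 members, or 47.3%, against 13.7% of the comparison genes. In these 44 the median ratio of MII replicate 1 to replicate 2 was 3.01, 40 had a ratio above 2, 34 returned and 7 met the rule without MII replicate 1. In the other 49 the median ratio was 1.73, 20 had a ratio above 2, 25 returned and 16 met the rule without MII replicate 1. Comparison genes showed the same order, with a median ratio of 1.37 under 1000 bases and 0.843 from 1000 bases on. The part of length in the loss from MII to 2C was not tested. Of 90 members placed in the reference gene table, 29 overlap another gene there, among them TACC3, TIMM9, MICOS10, PSMA7, FMN2, CENPV and POM121C. Use of strand in counting is not given in the sources used here, so reads of such neighbours cannot be told apart.

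**Figure D5:**
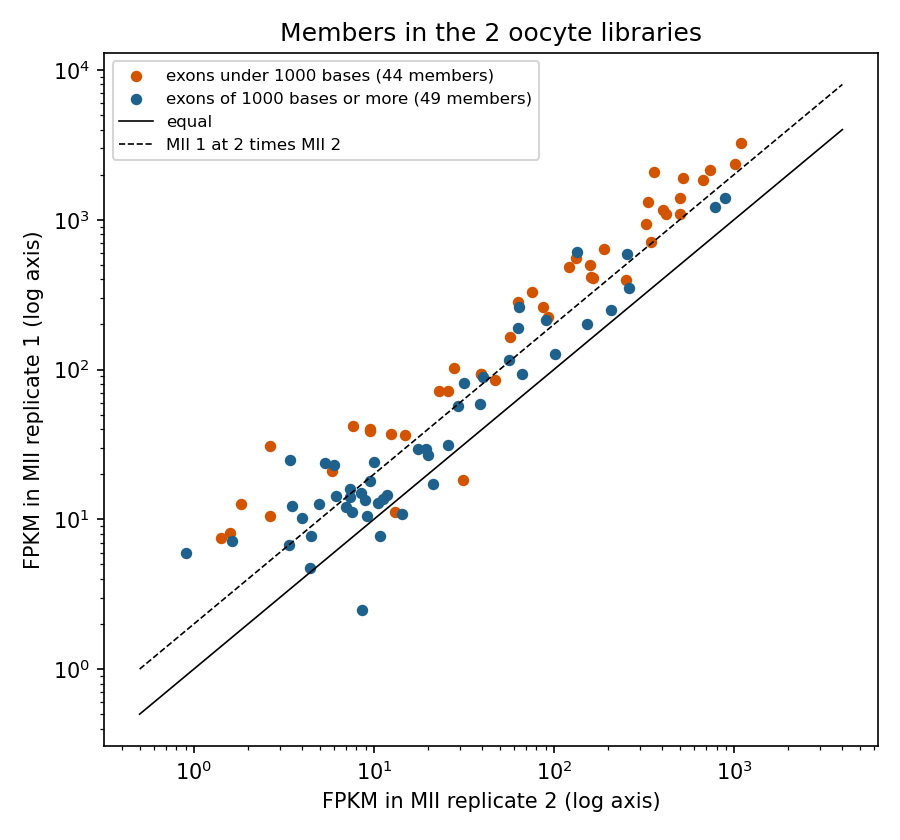
FPKM of each of the 93 genes in MII replicate 1 (vertical, log axis) against MII replicate 2 (horizontal, log axis). Orange points are genes under 1000 exonic bases and blue points longer ones, the solid line marks equality and the dashed line MII replicate 1 at 2 times replicate 2. Of the 93 points 87 lie above the solid line, and 40 of the 44 orange points lie above the dashed line.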

How the data were processed

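The authors deposited FPKM values of 30186 genes in 26 libraries, with no further unit or counts; the tools, per the submitters' processing notes, were featureCounts 2.0.1, HISAT2 2.1.0, fastp 0.23.4 and SAMtools 1.9. The build is not given in the sources used here, nor is the annotation, so no coordinates are printed; symbols and neighbours come from a RefSeq gene table (90 of 93 matched), and no sequence was used here. The members, the lists of genes and the tests were chosen with earlier results of these data known, and the grouping by role was made after values were seen. The named genes were to be the 20 with the highest MII mean, the 10 with the largest ratio, the 25 returned ones with the largest difference, members of a list, and those at the limit. Nearly every member with a symbol is named, and loci only to state which return.

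From the FPKM values limma 3.58.1 in R 4.3.3 fitted log2(FPKM + 1) (pseudocount 1) on the means of 6 stages in the 20 libraries from 4C to ExpB, with a trend (14 residual and 4.61 prior degrees of freedom), for genes at FPKM of at least 1 in 2 of them; the test is two-sided. A fold change on this scale is understated for genes near or under 1 FPKM. In simulated 16C against 8C data with 15639 genes, 81% of differences of 1.5 and 100% of 3 were recovered, with 4 false calls. The changed genes were drawn only from those with an 8C mean over 3 on the log2(FPKM + 1) scale. Recovery at lower levels, where many members lie in 8C, was not tested. Depth was recovered because FPKM values are whole multiples of 1 read: 99.7% to 100% of small RNA values were whole within 0.05 reads, lengths were found for 23233 of 23577 genes, 99.7% of 608 small RNA lengths equalled the reference, and 93% of 400 simulated lengths were exact. The precision of that search was set after several trials, by how well reads summed to the library totals (99.2% to 99.6%). Reads of this kind have no molecular identifiers and are not independent molecules. Alternatives were another pseudocount, filter, scaling (TPM, median-ratio, quantile), ratio, all 26 libraries, the replicate number as a block and each library left out; limma-voom on recovered reads (library sizes by median ratio) was added after seeing the data. Not every member is reported here by name.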

Additional observations from a re-analysis of the deposited data

Results flagged for a closer look

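In stages with 4 libraries (2C, 8C and ExpB), a library stood far from the other 3 in 24 of 204 groups of values, or 11.8%. These groups cover the 68 members with a symbol. The limit used is set to flag about 1 in 20 groups of independent values. The groups share libraries and the 2C values chose the members, so that rate does not apply here. Of the 24, 9 were at 2C replicate 1 and 9 at ExpB replicate 1.

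2C replicate 1 lay above the other 2C libraries for PCBP1 (429 FPKM, others 268 to 275), TACC3 (88.5, others 39.8 to 44.4), PSMA7 (149, others 72.0 to 82.3), HES1 (60.8, others 37.8 to 40.9) and CITED2 (49.7, others 31.5 to 32.1). The same library lay above the others for CSNK2B (26.8, others 17.1 to 17.6), SAP30L (4.82, others 2.52 to 2.70), ARID1A (3.36, others 2.47 to 2.55) and NR2F2 (1.25, others 0.210 to 0.380). 2C replicate 2 did so for TCF7L2 (1.43, others 1.03 to 1.07).

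ExpB replicate 1 lay above the other ExpB libraries for SNRPG (362, others 264 to 266), TACC3 (14.8, others 7.87 to 8.44), NDUFA1 (1837, others 1197 to 1266), CSNK2B (42.6, others 26.4 to 28.8) and TMEM254 (11.4, others 7.36 to 7.40). It also did for UNCX (0.0517, others 0), LSM8 (24.0, others 8.28 to 10.8), NOL7 (40.4, others 24.4 to 26.4) and JUND (5.24, others 1.70 to 2.18). ExpB replicate 2 was high for PDCL3 (98.0, others 65.9 to 70.1) and SP2 (1.54, others 0.956 to 1.02), and ExpB replicate 3 for CENPV (0.626, others 0.458 to 0.475). In 8C, replicate 1 was high for TOMM7 (459.8, others 307 to 319) and CITED2 (35.5, others 19.5 to 21.8).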

How the results depend on the processing

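The choice of members depended most on the MII libraries: 93 genes as reported became 34 without MII replicate 1 and 251 without MII replicate 2, and 157 without 2C replicate 1. They became 269 with a pseudocount of 0.1, 341 at a ratio of 2, 39 at a ratio of 4 and 191 after median-ratio scaling; on the TPM scale 91 passed, 69 of them shared. Leaving out each library in turn, returning members ranged from 16 to 149. Over the same settings members higher than 8C ranged from 3 to 32 in 16C, 12 to 135 in morula, 15 to 152 in EarlyB and 7 to 130 in ExpB, and members lower from 0 to 6, 4 to 39, 6 to 37 and 9 to 47. Between successive stages the ranges were 0 to 1 higher and 0 to 1 lower (8C against 4C), 11 to 128 and 4 to 35 (morula against 16C), 3 to 57 and 4 to 20 (EarlyB against morula), and 0 to 5 and 7 to 53 (ExpB against EarlyB). With 1 library of a stage left out the fit shares its spread with the other stages.

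Members lower in 16C numbered 1 with no filter on low values, 1 after median-ratio scaling, 1 with all 26 libraries, 1 with limma-voom and 4 on the TPM scale, against 2 as reported. On the TPM scale 20 were lower in EarlyB, against 13. From EarlyB to ExpB, 4 rose and 6 fell after median-ratio scaling, 11 fell after quantile normalization, and 2 rose and 11 fell with limma-voom, against 1 and 17; from 16C to morula 18 fell with limma-voom, against 11. The cause was not tested. A return to 100% of the MII mean was met by 41 members. Of 123 calls of single genes followed through the alternatives, 100 were never lost, 23 were lost in at least 1, and none changed sign. Followed were only the largest called difference of a gene from 8C, its first rise and any 16C call. The MII and 2C libraries are not in that fit, so leaving one of them out could not change these calls. The limma-voom alternative was chosen after seeing the data and was first run with TMM and with plain total library sizes; only the median-ratio version is given, and with TMM sizes a few more calls were lost, among them the return of ARID1A and the EarlyB call of TBCA. Over all genes the share of higher among calls moved by over 10 points: in morula against 8C from 61.4% to 51.1% (TPM) and 47.4% (quantile), in EarlyB from 62.7% to 49% (quantile), in 16C from 72.9% to 56.8% (TPM), and from EarlyB to ExpB from 26.5% to 57.6% (median-ratio).

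Deviations of same-numbered libraries of different stages had correlations of -0.147 to 0.193 (46 pairs, median -0.003, 2 over 0.1). Pairs with different numbers had correlations of -0.200 to 0.259 (120 pairs, median 0.001, 9 over 0.1). Whether libraries of the same number shared an animal, a culture or a batch was not tested. With the replicate block 58 members returned, 8 were higher and 3 lower in 16C, 49 and 15 in morula, 57 and 14 in EarlyB and 44 and 18 in ExpB. The planned search of promoter starts was not run, since no promoter sequences were used here.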

Other observations

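Among the 13 protein genes of mitochondrial DNA the ratio of MII to 2C (mean FPKM + 1 of each) differed widely: besides ND3 at 6.26 it was 2.96 for ND4L, 2.90 for COX3, 2.71 for ATP8, 2.16 for ND2, 2.05 for ND4 and 1.79 for ATP6, and between 0.660 and 1.33 for the other 6. Mean FPKM was 304 in MII and 47.8 in 2C for ND3, 1712 and 589.7 for COX3, and 518 and 785 for CYTB.

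The 23 members that met the rule in MII replicate 2 alone were mostly long: 16 had at least 1000 exonic bases. With a symbol they included TIMM9, DRAP1, HOXD1, SAXO1, FMN2, LHX2, CHAMP1, SP2, NAF1, TCF7L2, POM121C, TNFSF12, SEC61G, CEBPZOS, FAM222B, UBE2C and KHSRP.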
